A study of Homo sapiens with 32 samples.

Results

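Integrin beta 3 (ITGB3) and 5 other subunits of the integrins that bind the RGD (Arg-Gly-Asp) motif, ITGAV, ITGA5, ITGB5, ITGB6 and ITGB8, were followed through total and polysomal mRNA of 2 breast cell lines. The members were the protein-coding entries with these symbols in the deposited count tables, 6 of 19815 protein-coding genes and of 60554 genes listed in all. RNA-seq had been made from total mRNA (T) and from polysomal mRNA (P) recovered from sucrose gradients, of MCF10A, a non-tumourigenic breast epithelial line, and MDA-MB-231, a triple-negative breast cancer line. Cells were kept in normoxia (N), in hypoxia (H, 0.5% O2 for 24 hours), in normoxia with PP242 (NPP, 2.5 µM for 3 hours), an inhibitor of the mTOR kinase, or in hypoxia with PP242 (HPP). Every group of line, fraction and condition had 2 libraries labelled as biological replicates, which made 16 libraries per line and 32 in all. All groups were unmodified cells of 1 established line each. Both lines were grown in serum medium, to which EGF, hydrocortisone, cholera toxin and insulin were added for MCF10A only. Per the study's methods, control cells received DMSO, the solvent of PP242. Libraries held between 18340916 and 46032327 estimated read counts (median 34561484).

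Integrins are receptors made of 1 alpha and 1 beta chain that tie the extracellular matrix to the actin cytoskeleton and signal in both directions across the membrane. The alpha V chain (ITGAV) pairs with beta 3, beta 5, beta 6 or beta 8 and alpha 5 (ITGA5) pairs with beta 1 to give the fibronectin receptor, and all of these recognise the RGD motif of ligands such as fibronectin and vitronectin. Several alpha V integrins also bind the RGD motif of latent TGF-β and release or activate the growth factor, and in breast tumour cells these receptors are known for roles in migration and invasion.

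Expression levels are given as CPM (counts of a gene relative to all protein-coding counts of its library, on a common scale) after TMM scaling, so each value is relative to the other mRNAs of the same library. Differences are log2 fold changes (log2FC) against N with their standard error (SE) from edgeR quasi-likelihood fits, and a gene was said to rise or fall where its Benjamini-Hochberg adjusted p over all genes tested was under 0.05. With 2 libraries against 2, an exact two-sided permutation test of a single gene cannot go below 0.333, so every adjusted p below borrows its spread from the other groups and genes. These are bulk libraries, in which fewer cells expressing a gene and less RNA per cell cannot be told apart.

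The labels of the treatments were checked first. NDRG1, a hypoxia-induced gene, was at 69.7 and 82.0 CPM in MCF10A T in N and at 1204 and 1431 CPM in H, and in MDA-MB-231 T it went from 59.2 and 45.8 CPM to 818 and 598 CPM. EEF1A1, an mRNA with the terminal oligopyrimidine (TOP) start that makes translation depend on mTOR, was at 13550 and 13550 CPM in MDA-MB-231 P in N and at 4594 and 4541 CPM in HPP. In P under HPP, 5 of 5 listed TOP mRNAs fell in MDA-MB-231 and 3 of 5 in MCF10A. Under NPP 3 of 5 fell in MDA-MB-231 P (EEF1A1, EEF1B2 and TPT1) and 0 of 5 passed in MCF10A P, where their median log2FC was -1.25, so in MCF10A the NPP label was not borne out by a called TOP mRNA. Of 4 hypoxia genes (CA9, VEGFA, ADM and NDRG1), 3 rose under H in either fraction of MCF10A, all but VEGFA, and 2 in MDA-MB-231 (CA9 and NDRG1). NDRG1 also rose under NPP in MCF10A, by 1.80 in T and 2.09 in P.

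The labels of the lines were checked against their markers. MCF10A libraries held the basal keratins KRT5 (1190 to 3270 CPM) and KRT14 (458 to 4200 CPM), which stayed at or under 0.284 and 0.61 CPM in MDA-MB-231. The epithelial and basal markers CDH1, EPCAM and TP63 were near 0 in MCF10A, with highest values of 0.361, 0.461 and 0.226 CPM, and vimentin (VIM), a mesenchymal filament gene, reached 9370 CPM there. MDA-MB-231 libraries held the mesenchymal markers VIM (3110 to 6080 CPM), AXL (700 to 1050 CPM) and CDH11 (82.8 to 143 CPM), with SPARC at 0.795 CPM or less. ZEB1 and MMP14 had medians of 61.9 and 260 CPM there, and of 18.8 and 62.5 CPM in MCF10A. The mesenchymal markers SPARC (91.7 to 203 CPM) and ZEB2 (median 12.9 against 10.1 CPM) were higher in MCF10A. The luminal keratins KRT8 and KRT18 had medians of 361 and 385 CPM in MDA-MB-231 and of 153 and 200 CPM in MCF10A. The epithelial marker EPCAM was higher in MDA-MB-231 (9.86 to 19.1 CPM, median 12.8) than in MCF10A (median 0.303 CPM). So MCF10A matched its label by basal keratins and not by CDH1, EPCAM or TP63, and MDA-MB-231 did not match its own by SPARC or ZEB2.

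The 6 subunits differed widely in level, and the order was not the same in the 2 lines. To compare genes, CPM were divided by the length of the canonical transcript in kb. In MCF10A the median over 16 libraries was 212 CPM per kb for ITGA5, 48.7 for ITGB5, 14.1 for ITGAV, 2.47 for ITGB8, 1.11 for ITGB3 and 0.155 for ITGB6. This order held in 14 of 16 MCF10A libraries, ITGB3 lying above ITGB8 in 1 library and below ITGB6 in 1 other. Ranges over the libraries overlapped for the neighbours ITGAV and ITGB8, ITGB8 and ITGB3, and ITGB3 and ITGB6, and did not overlap for ITGA5 and ITGB5 or for ITGB5 and ITGAV. In MDA-MB-231 ITGB5 came first with a median of 32.8 CPM per kb, then ITGA5 (16.3), ITGAV (7.09), ITGB8 (0.676), ITGB3 (0.380) and ITGB6 (0.0297), in 16 of 16 libraries. Here the ranges of ITGB5 and ITGA5 and those of ITGB8 and ITGB3 overlapped. The order of ITGB8 and ITGB3 depends on the length used, since per kb of merged exons ITGB3 lay above ITGB8 in 6 of 16 MDA-MB-231 libraries and 3 of 16 MCF10A libraries. In these cells ITGB3 was thus among the least abundant RGD-binding subunits, well below the other beta chain ITGB5.

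**Figure D1:**
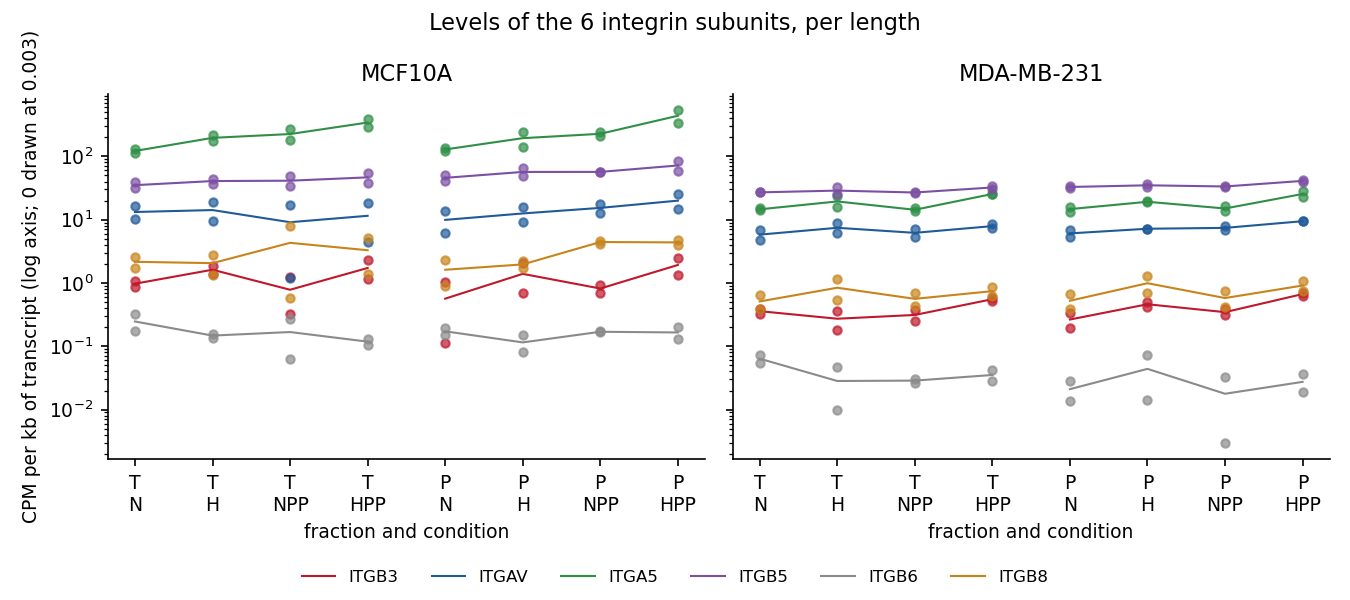
CPM per kb of canonical transcript (log axis) of the 6 subunits in every library of MCF10A (left) and MDA-MB-231 (right), by fraction and condition. Points are single libraries, lines join the means of 2 replicates within a fraction, and a value of 0 is drawn at 0.003. ITGA5 leads in MCF10A and ITGB5 in MDA-MB-231, and ITGB3 and ITGB6 lie lowest in all libraries but 1, in MCF10A, where ITGB8 lies below ITGB3.

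In normoxic T, 5 of the 6 subunits were lower in MDA-MB-231 than in MCF10A, where 40.7% of all 14298 genes passed the test in either direction and 20.5% as lower. ITGA5 differed most, with 478 and 557 CPM in MCF10A and 64.0 and 59.9 CPM in MDA-MB-231 (log2FC -3.53 ± 0.33 SE, adjusted p = 2.1e-08). ITGB3 was at 6.42 and 5.14 CPM in MCF10A and 2.33 and 1.93 CPM in MDA-MB-231 (log2FC -1.89 ± 0.72, adjusted p = 0.041). The groups did not overlap for either gene. The differences of ITGB8 (log2FC -2.53 ± 0.81, adjusted p = 0.016), ITGB6 (-2.42 ± 0.75, adjusted p = 0.013) and ITGB5 (-0.84 ± 0.25, adjusted p = 0.0091) passed as well. Not all calls of these 3 genes were kept in fits that left out 1 normoxic T library. Over all comparisons with 1 library left out, 17 of 44 values of called members stayed past the threshold and 27 did not. That of ITGAV did not pass (-1.64 ± 0.73, adjusted p = 0.079), except with the length offset (adjusted p = 0.0044) or with a replicate block within each fraction (adjusted p = 0.0077). Each line was deposited in a table of its own, so line and table cannot be told apart, and ITGB3 no longer passed when any 1 of its 4 normoxic T libraries was left out (adjusted p 0.076 to 0.17).

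ITGB3, at chr17:47253827-47313743 on the plus strand of GRCh38 with 15 exons in its canonical transcript, encodes the beta 3 chain, which pairs with alpha V or, in platelets, with alpha IIb. In MDA-MB-231 P, ITGB3 was at 1.18 and 1.97 CPM in N, 2.48 and 3.01 CPM in H, 2.27 and 1.84 CPM in NPP and 3.74 and 4.19 CPM in HPP. Both H libraries and both HPP libraries lay above both N libraries, while NPP overlapped N. In MDA-MB-231 T it was at 2.33 and 1.93 CPM in N, 2.15 and 1.09 CPM in H, 2.24 and 1.47 CPM in NPP and 3.10 and 3.49 CPM in HPP. In T only the HPP libraries lay apart from N, again above it, and these values rest on 24 to 176 counts per library.

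In MDA-MB-231, polysomal ITGB3 rose under HPP, by a log2FC of 1.32 ± 0.33 (adjusted p = 0.012). Under H alone the polysomal log2FC was 0.78 ± 0.33 (adjusted p = 0.24), and this log2FC was 1.2 without the second N library. Under NPP the polysomal log2FC was 0.37 ± 0.34 (adjusted p = 0.71). In T the log2FC was 0.62 ± 0.33 under HPP (adjusted p = 0.23), -0.37 ± 0.34 under H (adjusted p = 0.74) and -0.21 ± 0.33 under NPP (adjusted p = 0.93). The values of ITGB3 in T under H and NPP turned sign with 1 library left out, to 0.042 without the second H library and 0.11 without the second NPP library, and were -0.98 and -0.54 without the first of each. The polysomal HPP call was kept in 1 of 4 fits that left out 1 library, that without the second N library. In such fits a group of 1 library is assumed to vary like the other groups. It was lost without the first N library (1.08, adjusted p = 0.099), without the first HPP library (1.39, adjusted p = 0.053) and without the second (1.23, adjusted p = 0.072).

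Translational efficiency (Te) was taken as the polysomal log2FC minus the total log2FC and tested as an interaction. For ITGB3 in MDA-MB-231 the Te change was 1.15 ± 0.48 under H, at an unadjusted p of 0.029 and an adjusted p of 1. It was 0.70 ± 0.46 under HPP and 0.57 ± 0.47 under NPP, also at an adjusted p of 1. With 1 library left out the Te change of ITGB3 ran from 0.76 (without the second T H library) to 1.79 (without the first) under H, from 0.41 to 1.08 (without the first and the second P N library) under HPP and from 0.28 to 0.96 (without the second T NPP and the second P N library) under NPP. No member passed the Te test in MDA-MB-231, where H moved the Te of 0.0148% of all 13510 genes past the threshold, HPP of 0.696% and NPP of 0.34%. ITGB3 under H was the 1 member at an unadjusted p under 0.05, and DESeq2 called no member. These tests treat the T and P libraries of a culture as independent. With T and P of 1 culture as a block, an alternative chosen after seeing the data, the Te change of ITGB3 was 1.22 under H (adjusted p = 1), no member passed, and 8 genes passed under NPP in place of 46.

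In MCF10A the same gene was more abundant in most libraries, and its replicates were far apart in several groups (N and H of P, NPP and HPP of T) and close in N of T. In T, ITGB3 was at 6.42 and 5.14 CPM in N, 11.0 and 8.21 CPM in H, 7.36 and 1.93 CPM in NPP and 13.7 and 6.78 CPM in HPP. Both H and both HPP libraries lay above N, and the NPP libraries lay on either side of it. In P it was at 0.663 and 6.05 CPM in N, 4.06 and 12.5 CPM in H, 4.14 and 5.58 CPM in NPP and 7.88 and 15.0 CPM in HPP. Only the HPP libraries did not overlap N in P. The first N library of P held an estimated 19 ITGB3 counts (95% exact Poisson interval 0.398 to 1.04 CPM) and the second 302 (5.39 to 6.77 CPM), a gap beyond counting error, which is all that these intervals cover. In the first of these libraries 23 further counts were given to RP11-290H9.2, a readthrough gene with ITGB3 exons, and in the second 7.

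None of the ITGB3 changes in MCF10A passed as tested, but with the replicate number as a block within each fraction that of P under HPP did (2.11, adjusted p = 0.013). Without the block, the log2FC under HPP was 1.75 ± 0.87 in P (adjusted p = 0.17) and 0.83 ± 0.85 in T (adjusted p = 0.58), and under H it was 1.29 ± 0.87 in P (adjusted p = 0.64) and 0.74 ± 0.85 in T (adjusted p = 0.96). Under NPP it was 0.51 ± 0.86 in P (adjusted p = 0.88) and -0.30 ± 0.86 in T (adjusted p = 0.93). With 1 library left out both NPP values turned sign, running from -0.32 to 2.87 in P and from -1.59 to 0.35 in T. That of P under H ran from 0.25 to 3.64. The polysomal value depended on which N library was kept, since the ITGB3 log2FC under HPP was 0.99 without the first N library (adjusted p = 0.49) and 4.10 without the second (adjusted p = 0.024). In T it was 0.32 without the first HPP library and 1.25 without the second. The Te changes of ITGB3 were 0.55 ± 1.2 under H, 0.92 ± 1.2 under HPP and 0.82 ± 1.21 under NPP (adjusted p of 0.98 to 1). Without the first P N library they were -0.25, 0.14 and -0.028, and without the second 2.91, 3.28 and 3.17, and that under H was -0.48 without the second P H library.

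Te passed for no gene at all in MCF10A, that is 0% of 13124 genes for H, 0% for HPP and 0% for NPP. Before adjustment, 23, 433 and 296 genes had a p under 0.05, none of them a member, and DESeq2 called 0, 140 and 94 genes, again with no member. The count of 0 for HPP did not hold in other settings either, since 100 genes were called with the replicate number as a block within each fraction and 77 with the length offset, and 36 were called for NPP with that offset, with no member among them.

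**Figure D2:**
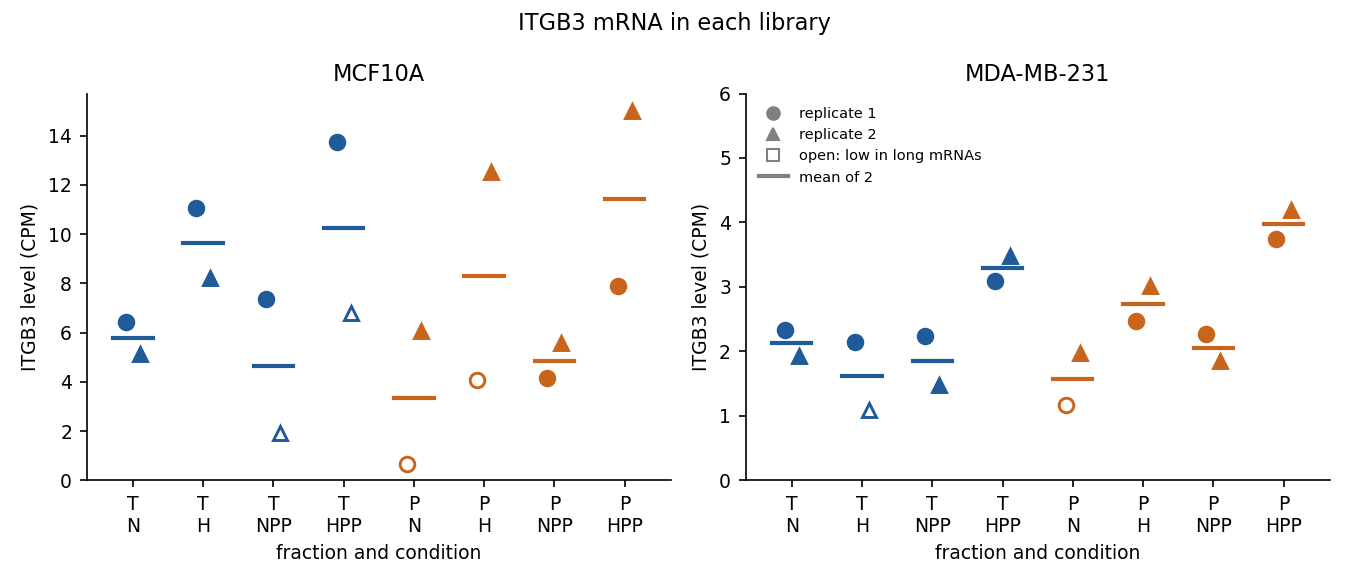
ITGB3 in CPM in every library of MCF10A (left) and MDA-MB-231 (right), by fraction and condition, with a vertical scale of its own for each line. Points are single libraries and horizontal bars the means of 2. In MDA-MB-231 both HPP libraries of P lie at 3.74 CPM or above and both N libraries at 1.97 CPM or below, while in MCF10A P the N libraries lie at 0.663 and 6.05 CPM.

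The RNA-seq counts of ITGB3 were estimated where another annotated gene shares its sequence. The readthrough gene RP11-290H9.2, at chr17:47253897-47344292, has 2266 of its 2785 exon bases in common with the exons of ITGB3. It received 0 to 60 counts per library in MCF10A, and 0 to 20 in MDA-MB-231. In the first N library of MCF10A P it had more counts than ITGB3 itself (23 and 19). With both genes summed, polysomal ITGB3 under HPP had a log2FC of 1.18 in MDA-MB-231, where the call was kept (adjusted p = 0.026), and of 1.65 in MCF10A (adjusted p = 0.15). How reads that fit both genes were divided was not tested.

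ITGA5, at chr12:54395261-54419266 on the minus strand with 30 exons, encodes the alpha 5 chain of the fibronectin receptor and was the member whose mRNA rose in both fractions and both lines. Its promoter window, 250 bases before to 50 after the RefSeq start (GRCh38.p14, chr12:54419217-54419516, minus strand), is shown because ITGA5 rose in T as well as in P, beside that of ITGAV (chr2:186589806-186590105, plus strand), whose total mRNA did not pass. Capitals mark the HIF core GCGTG, read on either strand, in both windows, and the AP-1 site TGANTCA in that of ITGA5.
ITGA5: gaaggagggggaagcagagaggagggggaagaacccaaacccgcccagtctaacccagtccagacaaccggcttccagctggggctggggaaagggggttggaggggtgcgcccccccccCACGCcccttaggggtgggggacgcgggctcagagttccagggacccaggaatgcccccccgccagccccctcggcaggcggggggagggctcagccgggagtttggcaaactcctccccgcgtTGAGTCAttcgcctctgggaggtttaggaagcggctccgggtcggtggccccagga
ITGAV: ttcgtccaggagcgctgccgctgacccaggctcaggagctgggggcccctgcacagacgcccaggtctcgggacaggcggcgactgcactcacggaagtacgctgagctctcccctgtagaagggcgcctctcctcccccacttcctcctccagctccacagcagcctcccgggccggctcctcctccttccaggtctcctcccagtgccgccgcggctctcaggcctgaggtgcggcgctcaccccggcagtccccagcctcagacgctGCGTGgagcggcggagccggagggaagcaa
The ITGA5 window held 1 HIF core, as CACGC from position 121, and 1 AP-1 site from position 245, and the ITGAV window held 1 HIF core from position 271. The HIF core GCGTG was searched on both strands together with the HIF core ACGTG. The AP-1 site TGANTCA and, as a further motif, the E-box CACGTG, which contains the second HIF core, made 4 motifs in all. Of 35093 RefSeq promoter windows of this length, 48.4% held either HIF core (36.5% the GCGTG form and 21.4% the other), 7.71% the AP-1 site and 7.26% the E-box. The window of ITGB8 held the HIF core GCGTG at 2 places, and those of ITGB5 and ITGB6 held none of the 4 motifs. RefSeq windows were matched for 5 of the 6 members, all but ITGB3, and where a member had more than 1, as ITGB5 (3) and ITGAV (2) did, the one nearest the GENCODE start was read and the others were not searched, and a match of letters is a description, not a binding site.

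In MCF10A T, ITGA5 was at 478 and 557 CPM in N, 742 and 924 CPM in H, 767 and 1146 CPM in NPP and 1247 and 1660 CPM in HPP. All treated libraries lay above both N libraries, and the HPP libraries above all others. In MCF10A P it was at 582 and 511 CPM in N, 608 and 1039 CPM in H, 1049 and 881 CPM in NPP and 1435 and 2283 CPM in HPP. The order was the same as in T, with N lowest and HPP highest. ITGA5 rose under HPP by a log2FC of 1.49 ± 0.35 in T (adjusted p = 0.015) and 1.77 ± 0.35 in P (adjusted p = 0.0051). Under H the log2FC was 0.69 ± 0.34 in T (adjusted p = 0.53) and 0.59 ± 0.34 in P (adjusted p = 0.55), and under NPP it was 0.89 ± 0.35 in T (adjusted p = 0.41) and 0.82 ± 0.35 in P (adjusted p = 0.32). The polysomal ITGA5 value under H was 0.15 without the second H library and 1.01 without the first, and that of total ITGA5 under NPP was 0.57 without the second NPP library.

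In MDA-MB-231 ITGA5 was less abundant. In T it was at 64.0 and 59.9 CPM in N, 98.7 and 66.2 CPM in H, 64.6 and 57.3 CPM in NPP and 107.8 and 108.5 CPM in HPP. In P it was at 56.6 and 68.2 CPM in N, 83.1 and 79.8 CPM in H, 70.4 and 57.2 CPM in NPP and 120 and 95.9 CPM in HPP. The H and HPP libraries lay above N in both fractions, and those of NPP overlapped N. ITGA5 rose under HPP by a log2FC of 0.80 ± 0.19 in T (adjusted p = 0.012) and 0.79 ± 0.18 in P (adjusted p = 0.0092). Under H the values were 0.41 ± 0.18 in T (adjusted p = 0.37) and 0.38 ± 0.18 in P (adjusted p = 0.31), and under NPP -0.02 and 0.03. The total value under H was 0.087 without the first H library. The Te change of ITGA5 under HPP was 0.28 ± 0.49 in MCF10A (adjusted p = 0.98), while in MDA-MB-231 it was -0.01 ± 0.26 (adjusted p = 1). The MCF10A value turned sign with the length offset (-0.027) and without the second P HPP library (-0.095), and was 0.57 without the first.

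The 4 ITGA5 calls under HPP were kept under each single change of setting, and they were fragile to the loss of a library. When 1 of the 4 libraries was left out, the call was kept in 3 of 4 fits for MCF10A P (lost without the second HPP library, adjusted p = 0.055) and in 2 of 4 for MDA-MB-231 P (lost without the first HPP library or the first N library, adjusted p of 0.12 and 0.075). It was kept in 1 of 4 for T in either line, without the first HPP library in MCF10A and without the first N library in MDA-MB-231.

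ITGAV, at chr2:186590010-186680901 on the plus strand with 30 exons, encodes the alpha V chain, the partner of the beta 3, beta 5, beta 6 and beta 8 chains. In MDA-MB-231 P it was at 37.7 and 47.8 CPM in N, 50.7 and 50.5 CPM in H, 56.6 and 47.8 CPM in NPP and 66.4 and 66.8 CPM in HPP. Both HPP libraries lay above all others of this fraction. ITGAV rose under HPP in P by a log2FC of 0.64 ± 0.21 (adjusted p = 0.046), whereas its log2FC in T was 0.44 ± 0.21 (adjusted p = 0.18), which passed with a replicate block within each fraction (0.47, adjusted p = 0.039). The polysomal call was the weakest of those made, since ITGAV missed the threshold with RLE scaling (adjusted p = 0.058), with an offset for transcript length (adjusted p = 0.052) and in all 4 fits without 1 library.

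In MDA-MB-231 T, ITGAV was at 48.5 and 33.2 CPM in N, 62.0 and 42.8 CPM in H, 49.3 and 37.9 CPM in NPP and 59.4 and 52.0 CPM in HPP, and only the HPP libraries did not overlap N. In MCF10A the replicates of ITGAV were far apart. In MCF10A T it was at 115 and 71.4 CPM in N, 131 and 68.3 CPM in H, 120 and 8.46 CPM in NPP and 131 and 31.2 CPM in HPP, so that every treated group overlapped N. In MCF10A P it was at 43.8 and 95.9 CPM in N, 64.3 and 112.2 CPM in H, 126 and 90.3 CPM in NPP and 102.6 and 179 CPM in HPP, and the HPP libraries lay above N. The ITGAV log2FC under HPP in MCF10A was 1.01 ± 0.94 in P (adjusted p = 0.48) and -0.20 ± 0.93 in T (adjusted p = 0.92). With 1 library left out, the value of ITGAV ran from 0.55 (without the second HPP library) to 1.68 (without the second N library) in P and from -1.49 (without the first HPP library) to 0.50 (without the second) in T, where its sign turned.

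ITGB5, at chr3:124761948-124901418 on the minus strand with 15 exons, encodes the beta 5 chain of a vitronectin receptor and was the steadiest member. Over the 16 libraries its highest value was 2.73 times its lowest in MCF10A and 1.68 times in MDA-MB-231, against 22.6 and 3.84 times for ITGB3. In MCF10A P it was at 183 and 223 CPM in N, 218 and 286 CPM in H, 249 and 255 CPM in NPP and 256 and 382 CPM in HPP. In MDA-MB-231 P it was at 150 and 142 CPM in N, 162 and 148 CPM in H, 151 and 146 CPM in NPP and 187 and 177 CPM in HPP. The HPP libraries lay above N in both lines, with a polysomal log2FC of 0.65 ± 0.29 in MCF10A (adjusted p = 0.13) and 0.32 ± 0.14 in MDA-MB-231 (adjusted p = 0.11). The MCF10A value passed in 2 of 10 other settings, with the replicate number as a block (0.63, adjusted p = 0.046) and with a block within each fraction (0.63, adjusted p = 0.026). In T the ITGB5 log2FC under HPP was 0.41 ± 0.29 in MCF10A (adjusted p = 0.39) and 0.26 ± 0.14 in MDA-MB-231 (adjusted p = 0.23). Without the second HPP library the MCF10A values of ITGB5 were 0.33 in P and 0.14 in T, and without the first they were 0.90 and 0.73. The T value was 0.26 without the first N library.

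ITGB8, at chr7:20330702-20415754 on the plus strand with 14 exons, encodes the beta 8 chain, a receptor for latent TGF-β. In MCF10A T it was at 23.5 and 15.3 CPM in N, 25.1 and 11.8 CPM in H, 72.0 and 5.28 CPM in NPP and 46.6 and 12.5 CPM in HPP. In MCF10A P it was at 8.17 and 20.9 CPM in N, 15.3 and 20.0 CPM in H, 42.0 and 37.6 CPM in NPP and 35.2 and 43.3 CPM in HPP. In P both groups with PP242 lay above N, and in T they spanned it. The polysomal log2FC was 1.45 ± 0.92 under NPP (adjusted p = 0.57) and 1.43 ± 0.92 under HPP (adjusted p = 0.29). The ITGB8 values were 0.93 and 0.98 without the first N library, and 2.29 and 2.26 without the second.

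In MDA-MB-231 P, ITGB8 was at 5.92 and 3.49 CPM in N, 11.6 and 6.21 CPM in H, 6.63 and 3.75 CPM in NPP and 9.74 and 6.62 CPM in HPP. In T it was at 5.70 and 3.46 CPM in N, 10.3 and 4.83 CPM in H, 6.21 and 3.86 CPM in NPP and 7.65 and 5.69 CPM in HPP. In P the H and HPP libraries lay above N, and in each group the first replicate was the higher. The polysomal log2FC of ITGB8 was 0.93 ± 0.43 under H (adjusted p = 0.29) and 0.81 ± 0.43 under HPP (adjusted p = 0.20). The value under H was 0.41 without the first H library, 0.56 without the second N library and 1.39 without the first N library. Under HPP it was 0.50 without the first HPP library, 0.46 without the second N library and 1.29 without the first N library. Both passed in 3 of 10 other settings, with the replicate number as a block (adjusted p of 0.011 and 0.0045), with a block within each fraction (0.016 and 0.0060) and without the filter on low counts (0.013 and 0.0090). In T the ITGB8 log2FC under HPP passed with the replicate number as a block (0.57, adjusted p = 0.045) and not with a block within each fraction (0.57, adjusted p = 0.051).

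ITGB6, at chr2:160099667-160200313 on the minus strand with 15 exons, encodes the beta 6 chain of epithelial cells and was barely present. In MCF10A T it was at 1.49 and 0.801 CPM in N, 0.633 and 0.738 CPM in H, 1.27 and 0.293 CPM in NPP and 0.494 and 0.604 CPM in HPP. In MCF10A P it was between 0.376 and 0.924 CPM. In T the H and HPP libraries lay below N, the opposite side from ITGA5 and ITGB3, with a log2FC of -1.05 ± 0.60 under HPP (adjusted p = 0.28) and -0.73 ± 0.58 under H (adjusted p = 0.83). The ITGB6 values were -0.55 and -0.23 without the first N library and -1.44 and -1.12 without the second. In MDA-MB-231 it had 0 to 9 counts per library, at most 0.343 CPM, and did not pass the filter on low counts. Its 1 library at 0, the first P library of NPP, allows a level of up to 0.085 CPM if a count of 0 is taken to allow 3 counts, and of up to 0.105 CPM by the exact Poisson interval used for ITGB3.

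**Figure D3:**
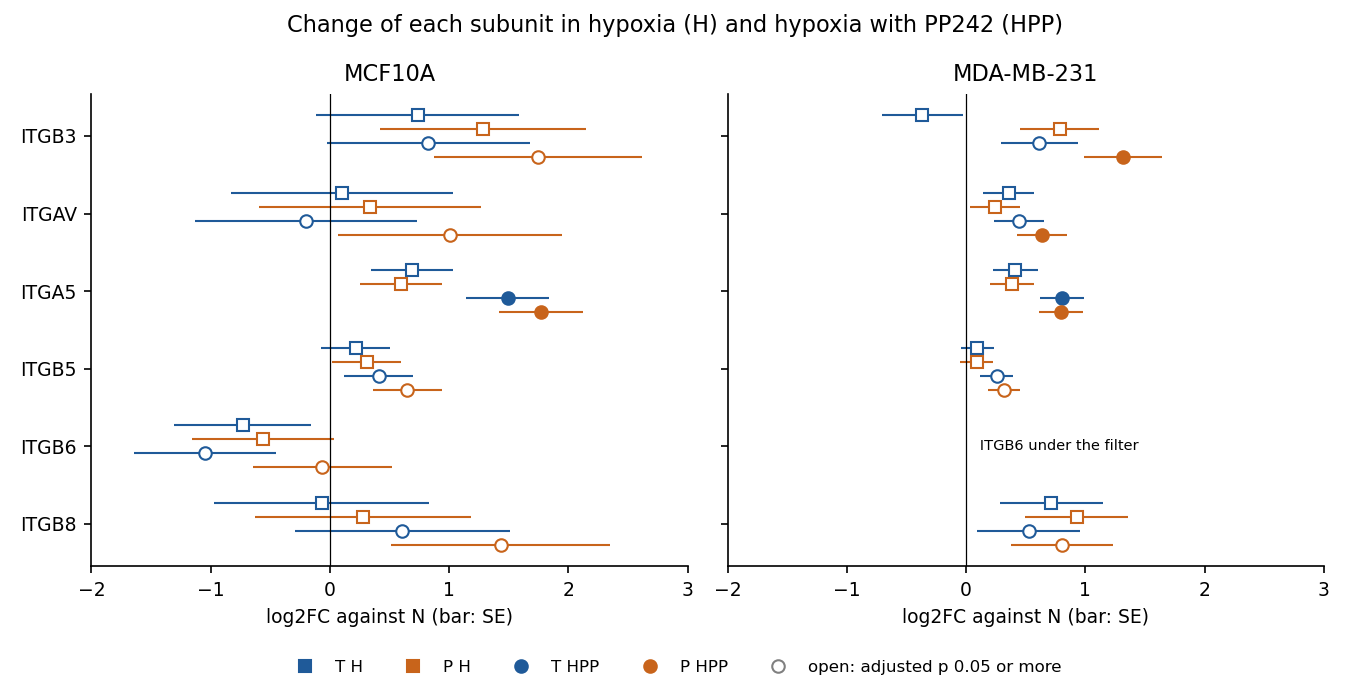
Log2FC against N (horizontal axis) of each subunit under H (squares) and HPP (circles), in T (blue) and P (orange), in MCF10A (left) and MDA-MB-231 (right). Bars are the SE of the fit, and filled symbols have an adjusted p under 0.05, which ITGA5 reached in 4 HPP comparisons and ITGB3 and ITGAV in MDA-MB-231 P.

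Counted together, the members passed more often under HPP than under the single treatments, as did the genes at large. In MCF10A P under HPP, 1 of 6 members rose (ITGA5), beside 10.2% of all genes that rose and 22.2% that passed in either direction, and the median log2FC was 1.22 for the members and -0.04 for all genes tested. In MCF10A T under HPP 1 of 6 rose (ITGA5), beside 7.43% that rose and 14.9% in either direction, with medians of 0.51 and -0.01. With the replicate number as a block within each fraction, 3484 genes were called in this comparison in place of 1956, and ITGA5 stayed the 1 member. With that block ITGB3 and ITGB5 also passed in MCF10A P under HPP, where 4785 genes were called in place of 2910. Likewise ITGB8 passed in MDA-MB-231 P (3606 genes in place of 2627) and ITGAV in MDA-MB-231 T (2608 in place of 1786). In MDA-MB-231 P under HPP 3 of the 5 members tested rose (ITGB3, ITGA5 and ITGAV), beside 9.71% that rose and 19.4% in either direction, with medians of 0.79 and 0.01. In MDA-MB-231 T under HPP 1 of 5 rose (ITGA5), beside 6.31% that rose and 13.2% in either direction, with medians of 0.52 and -0.05. No member fell in any of these. Within a line and fraction the 3 treatments were set against the same N libraries, so their comparisons are not separate evidence.

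Under H alone no member passed, beside 1.54% of genes in MCF10A T, 1.49% in MCF10A P, 1.27% in MDA-MB-231 T and 2.29% in MDA-MB-231 P. Members with an unadjusted p under 0.05 numbered 0, 0, 1 (ITGA5) and 2 (ITGB3 and ITGB8) in that order, and DESeq2 called none. ITGB8 in MDA-MB-231 P passed in 3 of 10 other settings. These were both blocks (611 and 641 genes called in place of 310) and no filter on low counts (822). Under NPP no member passed either, beside 0.648%, 0.823%, 0.555% and 1.95% in the same order. The members at an unadjusted p under 0.05 were 1 (ITGA5), 1 (ITGA5), 0 and 0, and DESeq2 again called none.

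The effect of PP242 within hypoxia (HPP against H) was tested directly. ITGB3 in MDA-MB-231 had a log2FC of 0.98 ± 0.33 in T (adjusted p = 0.11) and 0.53 ± 0.31 in P (adjusted p = 0.30), and in MCF10A 0.09 ± 0.85 in T (adjusted p = 0.98) and 0.46 ± 0.85 in P (adjusted p = 0.81). The MCF10A values of ITGB3 turned sign with 1 library left out, running from -0.47 (without the first HPP library) to 0.46 (without the second) in T and from -0.14 (without the first H library) to 1.50 (without the second) in P. In MDA-MB-231 T the value of ITGB3 was 1.66 without the first H library, where it passed (adjusted p = 0.033), and 0.63 without the second. ITGA5 in MCF10A had 0.80 ± 0.35 in T (adjusted p = 0.27) and 1.17 ± 0.35 in P (adjusted p = 0.070). With 1 library left out its T value ran from 0.511 to 1.035. No member passed, beside 3.74% of genes in MCF10A T, 6.5% in MCF10A P, 3.78% in MDA-MB-231 T and 11.5% in MDA-MB-231 P. Each of the 4 had 1 member with an unadjusted p under 0.05, ITGA5 in both fractions of MCF10A and in MDA-MB-231 P, and ITGB3 in MDA-MB-231 T. ITGA5 in MCF10A P passed in 3 of 10 other settings, with DESeq2 (1.17, adjusted p = 0.020), with the replicate number as a block (1.18, adjusted p = 0.045) and with a block within each fraction (1.18, adjusted p = 0.018). ITGB3 in MDA-MB-231 T passed without the filter on low counts (1.01, adjusted p = 0.025).

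In normoxia P was also compared with T, as a measure of how strongly each mRNA was loaded on polysomes relative to the average mRNA. The P against T log2FC of ITGB3 was -0.76 ± 0.86 in MCF10A (adjusted p = 0.81) and -0.43 ± 0.34 in MDA-MB-231 (adjusted p = 0.44). Without the first P N library these were -0.012 and -0.15, and without the second -3.12 and -0.83. The values of the other members ran from -0.50 (ITGB6) to 0.38 (ITGB5) in MCF10A and from 0.01 (ITGB8) to 0.28 (ITGB5, adjusted p = 0.19) in MDA-MB-231. That of ITGB6 was 0.0079 without the first T N library of MCF10A and -0.88 without the second. That of ITGB5 in MCF10A ran from 0.24 to 0.54 with 1 library left out and from 0.29 to 0.58 over the other settings. None passed, beside 0% of MCF10A genes and 13.1% of those of MDA-MB-231. ITGB5 in MDA-MB-231 passed with the length offset (0.46, adjusted p = 0.018). No member was at an unadjusted p under 0.05, and over all MCF10A genes 1660 were, with 22 called higher in P and 79 lower by DESeq2. The split by direction was the other way with the length offset, under which 374 genes were called and 58.0% of them were higher in P.

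Whether a treatment acted differently in the 2 lines was tested as a difference of differences (MDA-MB-231 minus MCF10A). Under HPP the difference was -1.01 ± 0.42 for polysomal ITGA5 (adjusted p = 0.22) and -0.61 ± 0.42 for total ITGA5 (adjusted p = 0.56), and -0.43 ± 0.99 for polysomal ITGB3 (adjusted p = 0.91, with values from -0.77 to -0.019 over the other settings). No member passed under H (0.266% of genes in T and 0.329% in P), HPP (3.31% and 3.6%) or NPP (0.056% and 0.126%), and only polysomal ITGA5 under HPP was at an unadjusted p under 0.05. The polysomal ITGB3 call of MDA-MB-231 was therefore not shown to be particular to that line.

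Libraries differed in how much of their signal came from long mRNAs, and the members are long, with canonical transcripts of 4.25 kb (ITGA5) to 8.974 kb (ITGB8) and 5.941 kb for ITGB3. For each library the median deviation from the mean log2 CPM of its fraction (T or P) in that line was taken over genes under 2 kb and over genes above 4 kb. The long-minus-short difference was -1.29 in the second T NPP library of MCF10A, -0.866 in the first P N library, -0.654 in the second T HPP library and -0.535 in the first P H library. In the other MCF10A libraries it was between -0.0965 and 0.604. The lowest 2 of these libraries were also those in which ITGB3 deviated most below its mean, by -1.77 in T NPP and -2.89 in P N, while in the second T HPP library it deviated by 0.02. Without the 4 MCF10A libraries, a choice made after seeing the data, the polysomal log2FC of ITGB3 under HPP was 0.94 (adjusted p = 0.12) in place of 1.75. ITGAV deviated by -2.93 in the second T NPP library, -1.11 in the first P N library and -1.05 in the second T HPP library, and without the 4 libraries its log2FC under HPP was 0.57 in P (adjusted p = 0.40) and 0.49 in T (adjusted p = 0.49). In MDA-MB-231 the lowest values were -0.35 in the second T H library and -0.272 in the first P N library, where ITGB3 deviated by -0.905 and -0.998. The next lowest, the first P H library at -0.223, had ITGB3 at 0.0365.

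Without these libraries several values moved. Without the 4 MCF10A libraries, an alternative chosen after seeing the data, ITGB3 in T under HPP had a log2FC of 1.24 (adjusted p = 0.049), a comparison of 1 HPP library with 2 N libraries whose spread is taken from the other groups. ITGA5 passed in T and in P, where 1 N library was left. The Te change of ITGB3 under HPP was then -0.31, and its P against T log2FC in normoxia turned sign, to 0.076. Without the 2 MDA-MB-231 libraries, which leaves 1 N library in P, polysomal ITGB3 under HPP had a log2FC of 0.99 (adjusted p = 0.064) and ITGAV of 0.46 (adjusted p = 0.23), so that only ITGA5 remained called (0.64, adjusted p = 0.037). The Te change of ITGB3 in MDA-MB-231 was then 0.44 under H, 0.33 under HPP and 0.25 under NPP, and its log2FC in T under H was 0.047. With a smooth offset for transcript length in every library, the ITGB3 and ITGA5 calls were kept. What part the balance of long and short mRNAs had in the differences between conditions was not tested.

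**Figure D4:**
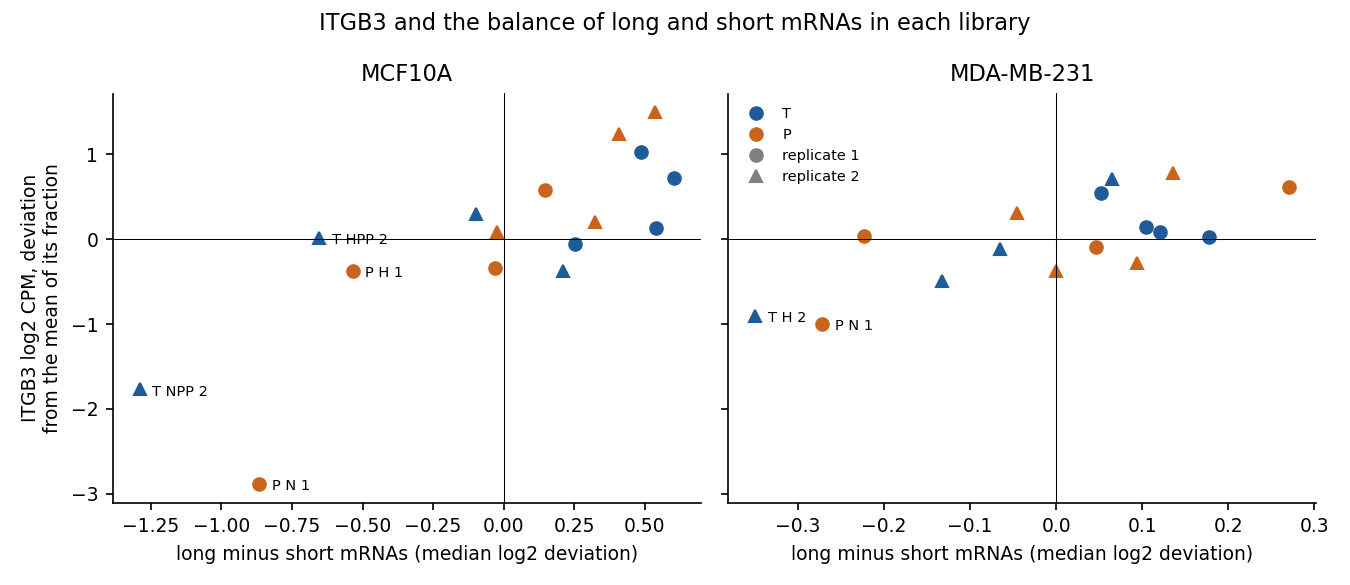
Deviation of ITGB3 from its mean over the libraries of the same line and fraction (log2, vertical axis) against the long-minus-short difference of the library (log2, horizontal axis). There is 1 point per library, for MCF10A (left) and MDA-MB-231 (right). The MCF10A P N library at a long-minus-short difference of -0.866 has ITGB3 at -2.89, the lowest point of that line.

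Among the other RGD-binding subunits, ITGB1, the beta 1 partner of alpha 5, was abundant in both lines. In P it went from 1339 and 1545 CPM in N to 2598 and 3536 CPM in HPP in MCF10A (log2FC 1.09 ± 0.47, adjusted p = 0.12) and from 1353 and 1266 CPM to 1727 and 1628 CPM in MDA-MB-231 (0.36 ± 0.16, adjusted p = 0.14). The groups did not overlap in either line, and neither change passed. ITGA2B, the platelet partner of ITGB3, stayed at or below 1.34 CPM in the MCF10A libraries and was tested in this line only, where its polysomal log2FC under HPP was 0.10 ± 0.35 (adjusted p = 0.86). ITGA8 had 0 counts in all MCF10A libraries and 1 to 7 in those of MDA-MB-231.

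Of the 17 remaining integrin subunits, 3 of 10 tested in MCF10A and 3 of 8 tested in MDA-MB-231 rose in P under HPP and none fell, with a median log2FC of 1.13 and 0.38, beside the 10.2% and 9.71% of all genes that rose. ITGB4, the laminin-binding partner of alpha 6 in hemidesmosomes, rose in both. In MCF10A P it went from 204 and 206 CPM to 859 and 1155 CPM (log2FC 2.30 ± 0.32, adjusted p = 0.00078) and in MDA-MB-231 P from 17.3 and 11.7 CPM to 54.2 and 33.1 CPM (1.59 ± 0.42, adjusted p = 0.017). ITGB4 also passed under H alone in MCF10A T (1.42 ± 0.31, adjusted p = 0.0497). In T under HPP it rose by 1.53 in MDA-MB-231 and by 2.41 in MCF10A.

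The other subunits that rose in MCF10A were the leukocyte chains ITGAX (polysomal log2FC under HPP 2.78 ± 0.66, adjusted p = 0.012, at most 2.32 CPM) and ITGB2 (1.13 ± 0.30, adjusted p = 0.021), which rose by 2.96 and 1.03 in T. In MDA-MB-231 the others that rose were the collagen receptor chain ITGA2 (1.11 ± 0.26 in P, adjusted p = 0.0092) and the laminin receptor chain ITGA6 (0.64 ± 0.17, adjusted p = 0.021), which rose by 0.83 and 0.62 in T. Without the libraries low in long mRNAs the counts in P were 3 of 13 tested in MCF10A and 2 of 10 in MDA-MB-231, and in MCF10A T 1 of 13 in place of 3 of 10. Under this choice 1613 of 13426 genes rose in MCF10A P, 758 of 14304 in MDA-MB-231 P and 1287 of 13426 in MCF10A T.

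A list of matrix and adhesion proteins that integrins bind was also followed. Some of them, such as fibronectin, carry an RGD motif, while POSTN, NOV and EMILIN1 are bound without one. In P under HPP, 6 of 17 tested rose in MCF10A and 5 of 17 in MDA-MB-231, beside 10.2% and 9.71% of all genes, and none fell. The other 11 and 12 did not pass, and the median log2FC was 1.02 and 0.69, with 16 and 15 values above 0. Fibronectin (FN1) went in MCF10A P from 1057 and 1484 CPM to 7528 and 8317 CPM (log2FC 2.64 ± 0.50, adjusted p = 0.0038) and in MDA-MB-231 P from 77.0 and 80.9 CPM to 260 and 206 CPM (1.56 ± 0.25, adjusted p = 0.00085). The groups were far apart in both lines, and FN1 rose in T as well, by 1.67 in MCF10A and 1.29 in MDA-MB-231. In MCF10A P the matrix proteins periostin (POSTN, 2.32 ± 0.41, adjusted p = 0.0028) and tenascin-C (TNC, 2.08 ± 0.48, adjusted p = 0.011) followed. In MDA-MB-231 P the matrix glycoprotein EMILIN1 (1.31 ± 0.42, adjusted p = 0.041) and the adhesion molecule L1CAM (1.12 ± 0.33, adjusted p = 0.028) followed, EMILIN1 at no more than 1.35 CPM.

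In T under HPP, where 7.43% of MCF10A genes and 6.31% of MDA-MB-231 genes rose, 3 of 17 ligand genes rose in MCF10A (L1CAM by 1.70, FN1 by 1.67 and POSTN by 1.37) and 4 of 17 in MDA-MB-231 (FN1 by 1.29, L1CAM by 1.22, NOV, a matricellular growth regulator, by 1.05, and 1 more). Under H alone none of the ligand genes passed in either fraction or line, with medians of 0.56 in T and 0.62 in P in MCF10A and of 0.08 and 0.15 in MDA-MB-231. Without the libraries low in long mRNAs, 8 of 19 ligand genes rose in MCF10A P and 4 of 22 in MDA-MB-231 P, beside 1613 of 13426 and 758 of 14304 genes in all.

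The latent TGF-β axis, into which alpha V integrins feed, had 1 of 20 genes tested that rose and 3 that fell in MCF10A P under HPP, beside the 22.2% of all genes that passed, with a median log2FC of -0.00092. LTBP1, which stores latent TGF-β in the matrix, rose by 2.49 ± 0.46 (adjusted p = 0.0033), and the inhibitory Smads SMAD6 and SMAD7, which restrain TGF-β and BMP receptors, fell by 4.01 and 1.34 (SE 0.27 and 0.25, adjusted p of 3.1e-05 and 0.0037). SMAD6 was at 13.6 and 15.5 CPM in P in N, 10.2 and 9.60 CPM in H, 1.58 and 1.74 CPM in NPP and 0.805 and 0.992 CPM in HPP. The libraries with PP242 thus lay apart from those without it. SMAD6 and SMAD7 also fell in P under NPP, by 3.13 and 1.93, beside 0.823% of all genes that passed. In MCF10A T under NPP 3 of 20 genes of this list fell and 0 rose, beside 0.648% of all genes. In T under HPP, SMAD6 fell by 4.36, SMAD7 fell by 1.78 and the ligand gene TGFB2 fell by 2.58, these being the 3 of 20 that fell, while 2 rose and 14.9% of all genes passed.

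In MDA-MB-231, 1 of 20 genes of the TGF-β axis rose in P under HPP, beside 9.71% of all genes, with a median of 0.27. That gene was TGFB1, the ligand itself, at 30.6 and 28.3 CPM per kb in N and 38.1 and 42.5 CPM per kb in HPP (log2FC 0.45 ± 0.14, adjusted p = 0.034). TGFB1 rose under H in P as well (0.61 ± 0.14, adjusted p = 0.034) and under HPP in T (0.70 ± 0.14, adjusted p = 0.0054), where VIM was the other gene of the list to rise (0.75 ± 0.15). No gene of this list fell in MDA-MB-231 under HPP.

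Genes of the adhesion machinery that couples integrins to actin and to kinases had medians near that of all genes. In P under HPP 5 of 37 tested rose and 2 fell in MCF10A (median -0.02, beside 22.2% of all genes in either direction), and 1 of 38 rose in MDA-MB-231 (median 0.09, beside 9.71% that rose). In MCF10A P the scaffold NEDD9 rose by 1.50 ± 0.36 (adjusted p = 0.013) and the kinase gene PTK2B by 1.47 ± 0.28 (adjusted p = 0.0038), while SRC fell by 1.22 (SE 0.31, adjusted p = 0.017). In MDA-MB-231 P the gene that rose was vinculin (VCL, 0.68 ± 0.18, adjusted p = 0.015), which links integrin-bound talin to actin and did not pass without the 2 libraries. In T under HPP 3 of 37 rose and 1 fell in MCF10A (PTK2B by 1.46 and TNS2, a tensin, by 0.97 up, SRC by 1.26 down), and 2 of 38 rose in MDA-MB-231 (PTK2B by 1.17 and VCL by 0.58), beside 14.9% and 13.2% of all genes in either direction.

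**Figure D5:**
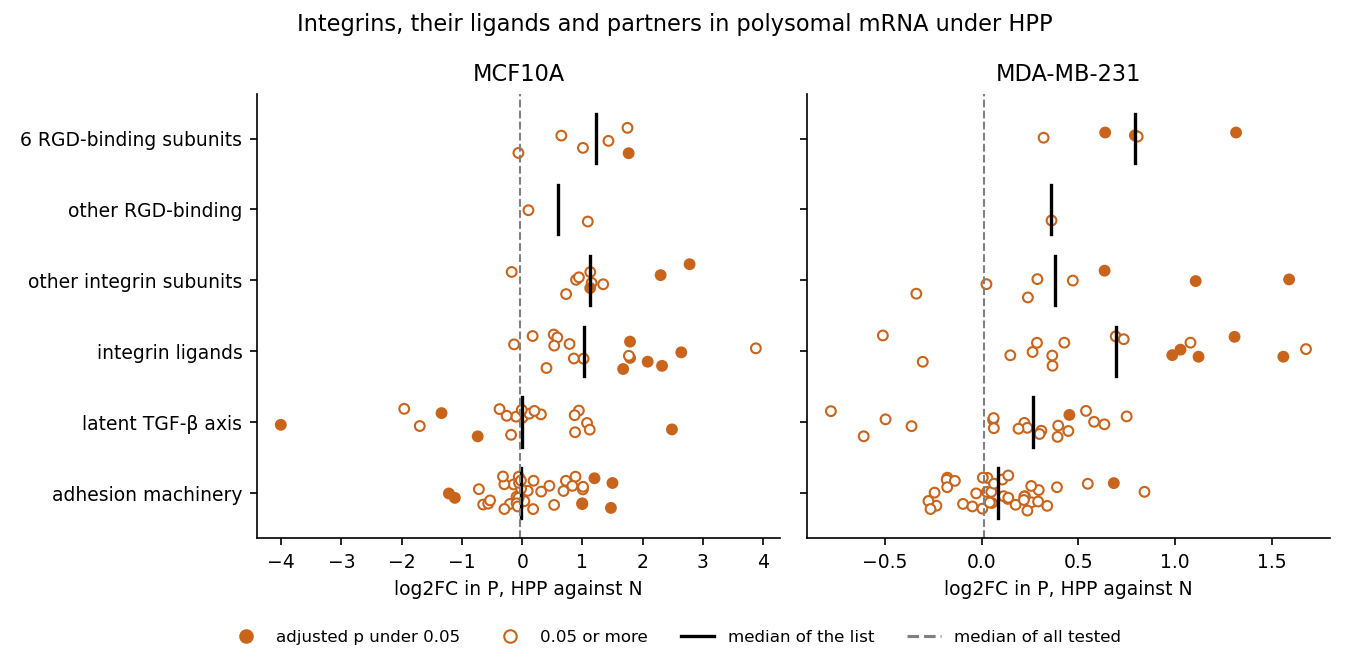
Log2FC in P under HPP against N (horizontal axis, a scale for each line) for the 6 members and the related gene lists in MCF10A (left) and MDA-MB-231 (right). Each point is a gene tested, filled where its adjusted p is under 0.05, with the list's median as a solid bar and the median of all genes tested as a dashed line. The medians of the members (1.22 and 0.79) and of the integrin ligands (1.02 and 0.69) lie to the right of the dashed line in both lines.

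Markers of the cells themselves also moved under HPP, where 10.2% of all genes rose in MCF10A P, 7.43% in MCF10A T, 9.71% in MDA-MB-231 P and 6.31% in MDA-MB-231 T, and 22.2%, 14.9%, 19.4% and 13.2% passed in either direction. In MCF10A, of 5 basal epithelial markers tested, KRT14, KRT17 and LAMB3, a laminin chain, rose in P (by 2.28, 2.35 and 3.39) and in T (by 2.37, 3.29 and 2.68). Of 7 mesenchymal markers in MCF10A, MMP14 rose in P (by 1.25) and VIM in T (by 1.73), and of 5 luminal markers tested FOXA1 fell in P, by 1.52. In MDA-MB-231 P, 1 of 6 basal markers tested rose (LAMB3, by 0.96) and EPCAM fell by 0.57, with a list median of -0.53. The luminal markers GATA3 and KRT18, 2 of 5 tested, fell by 0.79 and 0.63 there, and CD68, 1 of 6 tested markers of other cell types, fell by 0.47. In MDA-MB-231 T, LAMB3 rose by 0.99 and VIM by 0.75, and GATA3 fell by 0.92. Of 8 markers of immune, endothelial and fibroblast cells, 4 were tested in MCF10A, of which 2 rose in P (COL1A1 by 1.69 and PECAM1 by 2.45) and 3 in T (CD68 by 1.59, COL1A1 by 1.2 and PECAM1 by 2.56). Their summed level in MCF10A P was 97.8 and 62.5 CPM in N, 113 and 116 CPM in H and 121 and 130 CPM in HPP, mostly from CD68, and in T it was 53.8 and 60.4 CPM in N, 90.1 and 110 CPM in H and 126 and 183 CPM in HPP. Of the 8 markers, PTPRC, CD3E, CDH5 and COL3A1 did not exceed 0.101, 0, 0.0419 and 0.0902 CPM in any MCF10A library. The other 4 were present there, CD68 at 35.4 to 140 CPM, ACTA2, a smooth muscle and myofibroblast actin, at 10.8 to 33.0 CPM, COL1A1 at 3.62 to 19.2 CPM and PECAM1 at 0.105 to 1.81 CPM. What part the change of these markers had in the values of the members was not tested.

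Finally, the genes whose pattern over the libraries was most like that of ITGB3 were listed by Pearson correlation of log2 CPM over the 16 libraries of a line, which share library depth and the balance of long and short mRNAs described above. In MCF10A these were B4GALT1 (r = 0.939), C22orf46 (0.938) and PXDN (0.936) of 13123 genes. In MDA-MB-231 they were EMILIN1 (0.870), ATP11B (0.868) and EGFR (0.860) of 13509 genes. Of the members, ITGAV (0.638) and ITGB8 (0.620) were closest in MCF10A, at ranks 1348 and 1488 among all genes. ITGA5 was at 0.401, ITGB6 at 0.25 and ITGB5 at 0.209 there. In MDA-MB-231 ITGA5 (0.786) and ITGAV (0.755) were closest, at ranks 56 and 130 among all genes, followed by ITGB5 (0.616) and ITGB8 (0.467).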

How the data were processed

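Per the study's methods, the authors aligned reads with STAR, estimated expected counts per gene with RSEM on GRCh38 and GENCODE v24, and deposited 1 table per line. The submitters' processing notes name build 37. Libraries were made with the TruSeq RNA v2 kit, and polysomal RNA came from gradient fractions with light and heavy polysomes. The deposited expected counts were rounded to whole numbers. Protein-coding genes held 97.4 to 99.2% of counts per library. Totals were 30302497 to 46032327 in MCF10A and 18340916 to 39536845 in MDA-MB-231.

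Per line, edgeR 4.0.16 (R 4.3.3, limma 3.58.1) quasi-likelihood models were fitted genome-wide to 16 libraries in 8 groups with TMM factors after filterByExpr, which left 13124 and 13510 genes. Both lines together left 14298. P-values were adjusted by Benjamini-Hochberg over all genes tested and called under 0.05. Alternatives were DESeq2 1.42.0, RLE and upper-quartile scaling, no filter beyond 1 read, the compared libraries alone, replicate blocks, a length offset, ITGB3 summed with its readthrough gene, and single libraries left out.

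The members, the lists and the rule for named genes (up to 3 genes past the threshold with the largest change per list, line and fraction) were chosen with earlier results of these data known. Loci and lengths came from GENCODE v44 on GRCh38, which matched 98.37% of protein-coding genes, and promoters from RefSeq. Replicates are labelled biological, and p-values measure the spread between these libraries. Replicate numbers were checked for pairing by the correlation of same-numbered deviations from group means. All 6 pairs of MCF10A T groups exceeded 0.1 (0.283 to 0.778), so same-numbered libraries deviated alike there. In MCF10A P 3 of 6 pairs did, and in MDA-MB-231 4 of 6 in either fraction. The replicate differences of MCF10A T also followed transcript length in H, NPP and HPP (Spearman correlations of -0.584, -0.657 and -0.603) and less in N (-0.109). What part this had in the correlations was not tested, nor whether the numbers mark shared batches. Library titles open with a number shared by 1 T and 1 P library, 8 numbers per line, taken as both fractions of 1 culture. The tests treat these libraries as independent, and a block by culture was an alternative for comparisons of P with T.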

Additional observations from a re-analysis of the deposited data

Results flagged for a closer look

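The readthrough gene RP11-290H9.2, which shares most of its exon bases with ITGB3, stands here for its highest count, which was in a treated library in both lines. Its own changes are not described in the comparisons, and its counts entered 1 alternative, summed with those of ITGB3. In MCF10A its highest count was 60, in the second P library of HPP, the 1 of 12 treated libraries above the normoxic libraries, which reached 23, and 8 libraries were at 0. In MDA-MB-231 its highest count was 20, and 3 of 12 treated libraries lay above the normoxic libraries, which reached 9, with 5 libraries at 0. How the estimated counts were divided between both genes was not tested.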

How the results depend on the processing

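Over 1884 values recomputed under a changed setting, 99 belonged to results past the threshold, of which 95 stayed past it, and 19 others newly passed. Among these settings, the sum of ITGB3 with its readthrough gene left the counts of the other members as they were. Their calls could therefore hardly change under it. With 1 library left out, 17 of 44 stayed and 27 were lost. With the replicate block within each fraction, polysomal ITGB3 in MCF10A under HPP passed (2.11, adjusted p = 0.013). With either block the members called were 2 or 3 in place of 1 in MCF10A P HPP, 4 in place of 3 in MDA-MB-231 P HPP, 1 in place of 0 in MDA-MB-231 P H and 2 in place of 1 in MDA-MB-231 T HPP (ITGA5 with ITGB8 under the plain block and with ITGAV under that within fractions), and no member's call changed in MCF10A T. All genes called with the plain block and with that within fractions were 3019 and 4785 in MCF10A P HPP, in place of 2910. In MDA-MB-231 they were 3412 and 3606 in P HPP (2627 as reported), 611 and 641 in P H (310) and 2482 and 2608 in T HPP (1786). Without the filter the members called were 1 in MDA-MB-231 P H and 4 in MDA-MB-231 P HPP, beside 822 and 3053 of 19229 genes. With RLE scaling or the length offset 2 members were called in MDA-MB-231 P HPP, beside 2694 and 3172 genes. Without the 4 MCF10A libraries low in long mRNAs, chosen after seeing the data, ITGB3 had a log2FC of 0.94 in P HPP and -0.31 in P NPP. In T it had 1.24 under HPP, with 1 HPP library, and 0.36 under NPP. The Te changes of ITGB3 were then -0.31 (HPP) and -0.67 (NPP). Without the 2 MDA-MB-231 libraries ITGB3 had 0.99 in P HPP and 0.047 in T H, and the ITGB3 and ITGAV calls in P HPP were lost. With single libraries left out, ITGB3 in MCF10A ran from 0.99 to 4.10 in P HPP, 0.32 to 1.25 in T HPP, 0.25 to 3.64 in P H, -0.32 to 2.87 in P NPP and -1.59 to 0.35 in T NPP, its Te change from -0.48 to 2.91 (H), 0.14 to 3.28 (HPP) and -0.028 to 3.17 (NPP), and its P against T difference from -3.12 to -0.012. In MDA-MB-231 it ran from 1.08 to 1.76 in P HPP, 0.52 to 1.2 in P H, -0.98 to 0.042 in T H and -0.54 to 0.11 in T NPP, and the normoxic line difference from -2.09 to -1.74. In these fits members lost calls in P HPP and T HPP of both lines and in the normoxic line difference. Newly past the threshold were 3 values, among them ITGB3 in MCF10A P HPP and in MDA-MB-231 T HPP against H. Such moves were not compared with those of all genes. The cause of these moves was not tested. Counts of all genes called moved by over 1.5 times over the settings. In MCF10A they ran from 1642 to 4785 (P HPP, 2910 as reported), 1212 to 3484 (T HPP, 1956), 6 to 675 (P H, 195), 194 to 601 (T H, 202), 97 to 744 (P NPP), 0 to 358 (T NPP, 85), 38 to 1951 (P HPP against H, 853), 0 to 1202 (T HPP against H, 491), 0 to 374 (P against T, 0), 0 to 140 (Te HPP, 0) and 0 to 94 (Te NPP, 0). In MDA-MB-231 they ran from 162 to 822 (P H, 310), 44 to 499 (T H, 171), 160 to 569 (P NPP, 264), 14 to 324 (T NPP, 75), 1544 to 2391 (P HPP against H, 1551), 61 to 970 (T HPP against H, 511), 914 to 2819 (P against T, 1764), 0 to 18 (Te H, 2), 75 to 157 (Te HPP, 94) and 8 to 122 (Te NPP, 46). For the line differences of an effect they ran from 436 to 1320 (P HPP, 515), 381 to 1059 (T HPP, 473), 32 to 141 (P H, 47), 36 to 127 (T H, 38), 12 to 57 (P NPP, 18) and 2 to 43 (T NPP, 8). With merged exon length, mean ITGB3 lay above mean ITGB8 in MDA-MB-231 in T N (0.312 and 0.302 CPM per kb), T HPP (0.482 and 0.440) and P HPP (0.581 and 0.540), and in MCF10A in T H (1.41 and 1.22) and P H (1.21 and 1.16). Depth limits ITGB6 in MDA-MB-231 (0 to 9 counts). Correlations of same-numbered libraries over both fractions ran from -0.641 to 0.778 in MCF10A and -0.187 to 0.348 in MDA-MB-231. Among libraries of different cultures, same-numbered ones deviated alike throughout in MCF10A T only, and whether the numbers mark shared batches was not tested. The T and P libraries of 1 culture correlated from -0.25 to 0.214 in MCF10A and 0.00239 to 0.348 in MDA-MB-231. With the replicate block by culture, chosen after seeing the data, no member's call changed, and in MCF10A the Te change of ITGB3 was 0.98 (H), 1.55 (HPP) and 1.70 (NPP) and its P against T difference -1.38. Joint fits without single libraries were run for the normoxic total libraries only.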
